A study of Mus musculus with 6 samples.

Results

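The cluster that begins with miR-322 and miR-503 and ends with miR-450b is a group of microRNAs (miRNAs) encoded by 7 neighbouring hairpins on the mouse X chromosome. It was followed here through 9 mature strands named by their entries in the table: mmu-miR-322-5p, mmu-miR-322-3p, mmu-miR-503-5p, mmu-miR-503-3p, mmu-miR-351-5p, mmu-miR-542-5p, mmu-miR-542-3p, mmu-miR-450a-5p and mmu-miR-450b-5p. The prefix mmu (mouse) is left out from here on. All 9 were found among the 1390 mature miRNAs of the count table, and all 9 passed the filter on low counts. The study sequenced small RNA from whole thymus of wild-type C57BL mice aged 5 weeks. The control group was 3 mice with no irradiation, and the irradiated group was 3 mice given a 6 Gy dose of X-rays (800 cGy/min, 40 cm distance) whose thymus was taken after 24 h. Each mouse gave 1 library, so whole tissue was measured and no cell type was isolated.

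A miRNA is cut from a hairpin precursor, and either arm of the hairpin, the 5p or the 3p strand, can be loaded into an Argonaute protein and guide it to messenger RNAs. Bases 2 to 8 of the loaded strand, the seed, decide most of the pairing, so the 2 strands of a hairpin have different targets. The miR-322 and miR-503 strands are best known for slowing the cell cycle by lowering cyclins and Cdc25a and for their part in muscle differentiation. The cluster as a whole is most active in embryonic, placental and connective tissues and is low in most adult organs.

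The hairpins lie on the minus strand within chrX:53047997-53054349 in GRCm38, a span of 6353 bp. In the direction of transcription the order is Mir322 (chrX:53054255-53054349), Mir503 (chrX:53053984-53054054), Mir351 (chrX:53053255-53053353), Mir542 (chrX:53049403-53049487), Mir450-2 (chrX:53048299-53048367), Mir450-1 (chrX:53048154-53048244) and Mir450b (chrX:53047997-53048078). Mir322, Mir503 and Mir351 lie inside the noncoding gene C430049B03Rik as RefSeq draws it (chrX:53053112-53057190). The GENCODE M21 model of that gene ends upstream of them (chrX:53055046-53057190), and no longer GENCODE gene overlaps any of the 7 hairpins. Whether the hairpins are exonic or intronic therefore depends on the annotation and is not stated here. MiR-450a-5p can come from both Mir450-1 and Mir450-2, which give the same 5p strand.

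The 9 strands are shown with the seed in capitals, because some are compared below with other miRNAs of the same seed. Each sequence was identical in the deposited table and in RefSeq (GRCm38.p6).
miR-322-5p: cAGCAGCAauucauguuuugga
miR-503-5p: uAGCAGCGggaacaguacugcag
miR-322-3p: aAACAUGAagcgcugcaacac
miR-503-3p: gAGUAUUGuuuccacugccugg
miR-351-5p: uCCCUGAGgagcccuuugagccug
miR-542-5p: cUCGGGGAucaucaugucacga
miR-542-3p: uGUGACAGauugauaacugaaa
miR-450a-5p: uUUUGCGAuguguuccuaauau
miR-450b-5p: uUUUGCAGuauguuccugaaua

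By seed, miR-322-5p belonged to the miR-15/16 family: miR-15a-5p, miR-15b-5p, miR-16-5p, miR-195a-5p and miR-497a-5p have the same 7 bases. MiR-503-5p shared 6 of the 7 with them, and no other known miRNA of the table had its full seed. MiR-351-5p carried the seed of miR-125a-5p and miR-125b-5p. MiR-450a-5p and miR-450b-5p differed at 2 of the 7 seed positions and at 7 of 22 positions in all, so their reads can be told apart. The 5p and 3p strands of miR-503 are shown in capitals within their hairpin, since the balance between them is described in detail below.
mmu-mir-503: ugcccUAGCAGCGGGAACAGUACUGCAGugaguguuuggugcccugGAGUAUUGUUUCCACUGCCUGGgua

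The summed level of the cluster overlapped between control and irradiated thymus, while 3 of its strands were lower and 1 was higher after irradiation. The 9 strands together were at 382, 499.9 and 489.8 CPM in the controls against 311, 377 and 403 CPM after irradiation. CPM here are counts set to a common library size, with trimmed-mean (TMM) factors. Values per library are given in the order of replicates 1, 2 and 3 throughout. The group means were 457 ± 65.4 CPM (SD, n = 3) for controls and 363.4 ± 47.1 CPM (SD, n = 3) for irradiated mice, and the groups overlapped. The direction of this sum depended on the scaling, since upper-quartile factors gave 392 and 421 CPM. Of the 9 strands, 3 were lower after irradiation (miR-503-5p, miR-542-5p and miR-450b-5p), 1 was higher (miR-503-3p) and 5 did not pass. The test was edgeR's quasi-likelihood test, with p-values adjusted over all 519 miRNAs tested and a threshold of 0.05. Over all tested miRNAs 61.3% were called, 33.5% as lower and 27.7% as higher, so that the 44.4% of the cluster was below the share of all miRNAs. The median log2 change was −0.50 over the 9 strands and 0.01 over all tested miRNAs.

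These calls were close to the threshold. At an adjusted p of 0.01 the edgeR test called 0 of the 9, and 4 of the 9 had groups that did not overlap, against 68.6% of all tested miRNAs. The 4 calls became 2 without control replicate 1, 0 without control replicate 2, 1 without control replicate 3 and 2 with upper-quartile factors.

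**Figure D1:**
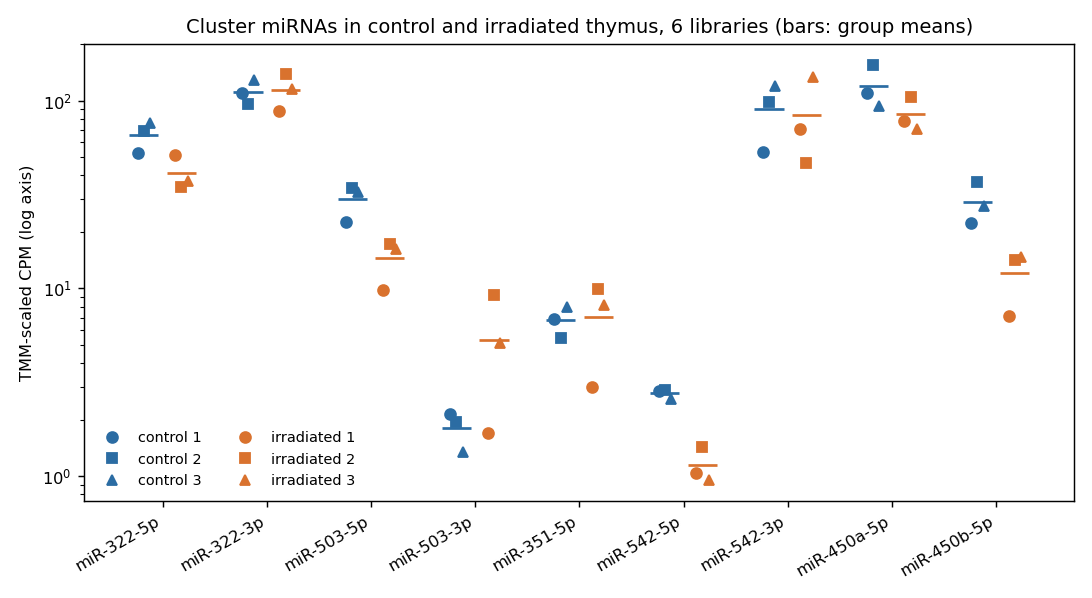
Level of each of the 9 cluster strands in the 6 libraries, in TMM-scaled CPM on a log axis; points are libraries and bars are group means. The irradiated points of miR-503-5p, miR-542-5p and miR-450b-5p lie below all control points, while those of miR-503-3p reach 9.19 CPM and overlap the control range at 1.70 CPM.

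Other miRNAs of the tissue gave the setting for these values. Library totals were 7730641 to 9287017 counts, and the cluster held 0.0275% to 0.0697% of them. Of 6 listed lymphoid and pan-haematopoietic miRNAs, 5 were lower, and miR-150-5p did not pass (−0.31, edgeR adjusted p of 0.373). Their summed level was 101317 to 168255 CPM in control and 6878 to 11384 CPM in irradiated libraries. Most of it in control was miR-181a-5p, with a mean of 94358 CPM of 141092 CPM. The myeloid miR-223-3p did not pass either (0.59, edgeR adjusted p of 0.388). Of 6 fibroblast and vascular miRNAs 4 were higher, and of 4 epithelial miRNAs all 4 were higher. Over all tested miRNAs the shares were 33.5% lower and 27.7% higher. In such whole-tissue samples, fewer cells of a type and less RNA per cell cannot be told apart. Irradiated replicates 2 and 3 stood apart in the summed levels of striated-muscle and red-cell miRNAs. The 4 muscle miRNAs summed to 203 to 481 CPM in control and to 603, 20130 and 13397 CPM in irradiated replicates 1, 2 and 3, and the 3 red-cell miRNAs to 479.8 to 724 CPM and to 604, 5027 and 1981 CPM. Irradiated replicate 1 was also above every control in each of the 4 muscle miRNAs. For miR-206-3p it was at 61.2 CPM, against 3.57 to 13.1 CPM in control and 24.1 CPM in irradiated replicate 3. None of the markers listed here was at 0 in any library.

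Of the 3 hairpins with both strands tested, miR-503 was the one whose strands were called in opposite directions. MiR-503-5p, the strand with the miR-15/16-like seed, was at 22.5, 34.2 and 32.5 CPM in the controls against 9.78, 17.3 and 16.2 CPM after irradiation. Every irradiated library lay below every control library. The mean went from 29.8 ± 6.32 to 14.4 ± 4.07 CPM (SD, n = 3 each); the log2 change was −1.04 with a standard error of 0.32 (edgeR adjusted p of 0.0179). The call of miR-503-5p was lost without control replicate 2 (edgeR adjusted p of 0.0771), without control replicate 3 (0.0816) and with upper-quartile factors (−0.62, 0.0856). With irradiated replicate 1 as the only irradiated library the log2 fold change of miR-503-5p was −1.40, a fit that holds no spread among irradiated mice.

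The opposite strand, miR-503-3p, went the other way. It had 15, 21 and 11 counts in control replicates 1, 2 and 3 and 13, 77 and 48 counts in irradiated replicates 1, 2 and 3. On the CPM scale this was 2.14, 1.95 and 1.35 against 1.70, 9.19 and 5.10. Irradiated replicates 2 and 3 were above all controls, and irradiated replicate 1 was within the control range. The log2 change of miR-503-3p was 1.55 with a standard error of 0.56 (edgeR adjusted p of 0.0328), the only call in the upward direction. The 2 libraries high in miR-503-3p were the 2 highest in the summed muscle and red-cell miRNAs, and the part of those tissues in the result was not tested. With irradiated replicate 1 as the only irradiated library the log2 fold change of miR-503-3p was 0.10. Without irradiated replicate 2 it was 1.12 and did not pass (edgeR adjusted p of 0.0786). The call was also lost without any 1 of the control replicates (edgeR adjusted p of 0.0525 to 0.0967).

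Because both strands come from the same hairpin in the same library, their ratio does not depend on how libraries are scaled. The 3p strand made up 8.67%, 5.38% and 3.99% of miR-503 counts in control replicates 1, 2 and 3 and 14.8%, 34.7% and 23.9% in irradiated replicates 1, 2 and 3. All 3 irradiated shares were above all 3 control shares, with means of 6.01% ± 2.41 and 24.4% ± 9.97 (SD, n = 3 each). The 95% Wilson intervals of irradiated replicate 1 (8.84% to 23.7%) and control replicate 1 (5.32% to 13.8%) overlapped, since these libraries had only 88 and 173 counts for the hairpin. Whether reads carried molecular identifiers was not given in the sources used here, and such intervals cover counting error only. Both strands together were at 24.7, 36.2 and 33.9 CPM in the controls against 11.5, 26.5 and 21.3 CPM after irradiation.

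On the log2 scale the 5p to 3p ratio of miR-503 was 4.00 ± 0.59 for controls and 1.68 ± 0.79 for irradiated mice (SD, n = 3 each), a change of −2.31 with an exact two-sided permutation p of 0.1. This is the smallest value that 3 against 3 libraries allow, and it was 0.178 after Benjamini-Hochberg adjustment over the 16 ratios compared. To place this value, the same ratio was computed for all 146 hairpins whose strands were both tested, a comparison chosen after the data were seen. In a limma fit over these hairpins 13.7% had a changed ratio, 6.16% toward the 3p strand. MiR-503 had the largest change toward the 3p strand of the 146 (second with a pseudocount of 2 or without control replicate 3, irradiated replicate 2 or irradiated replicate 3), −2.31 (95% interval −3.36 to −1.26, limma adjusted p of 0.012). The shift was not particular to this hairpin. Next came miR-15b with −2.18 (95% interval −3.17 to −1.18, limma adjusted p of 0.012) and miR-126a with −1.92 (0.0026). The median change over the 146 was −0.01, with quartiles of −0.59 and 0.50. The ratios of the 2 groups did not overlap for 32.9% of the hairpins.

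The call for the miR-503 ratio was lost without any 1 of 3 libraries, while the change kept its size. Leaving out control replicate 2 gave −2.26 (limma adjusted p of 0.0677), leaving out control replicate 3 gave −2.04 (0.0714) and leaving out irradiated replicate 3 gave −2.30 (0.064). With irradiated replicate 1 as the only irradiated library the change was −1.51, and miR-503 then had rank 8 of the 146 toward the 3p strand.

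**Figure D2:**
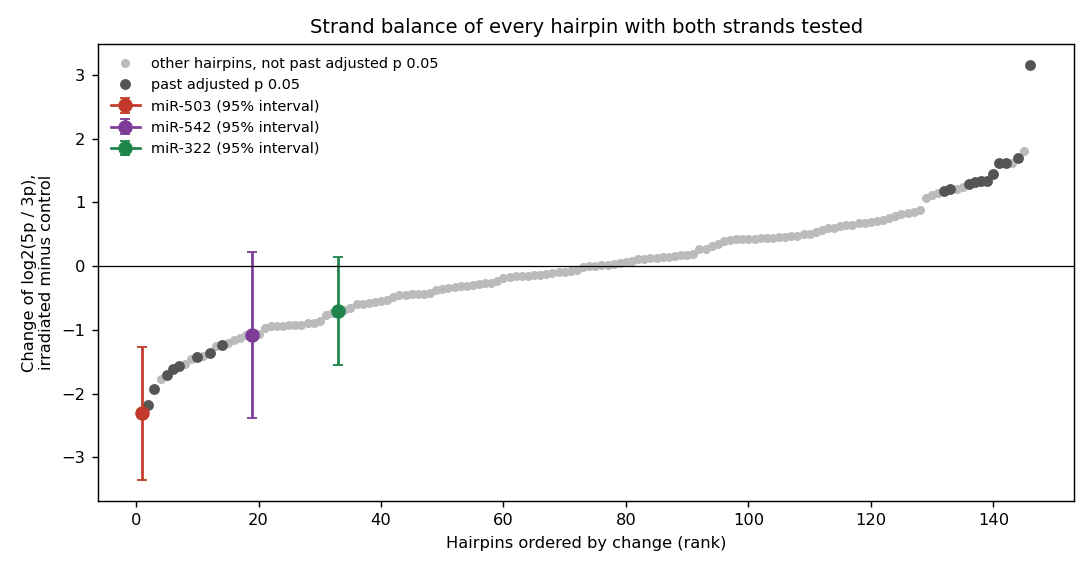
Change of the log2 ratio of the 5p to the 3p strand, irradiated minus control, for 146 hairpins ordered by size; negative values are shifts toward the 3p strand, dark points pass a limma adjusted p of 0.05, and coloured points with 95% intervals are the 3 hairpins of the cluster. MiR-503 is at the lower end with −2.31, while the intervals of miR-542 and miR-322 include 0.

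Among the cluster hairpins with both strands tested, miR-322 had the most even strands in control. MiR-322-5p, a full member of the miR-15/16 seed family, was at 52.6, 69.0 and 75.8 CPM in the controls against 51.5, 34.6 and 37.3 CPM after irradiation. The groups did not overlap, but irradiated replicate 1 was just under control replicate 1, and the test did not pass (log2 fold change of −0.68 ± 0.28 SE, edgeR adjusted p of 0.0584). It passed without irradiated replicate 1 (−0.88, edgeR adjusted p of 0.0143), while the change was −0.36 without irradiated replicate 2 (0.313) and −0.44 without control replicate 3 (0.359). With irradiated replicate 1 as the only irradiated library the change was −0.15. MiR-322-3p was at 110.1, 96.1 and 128 CPM in the controls against 87.9, 139 and 115 CPM after irradiation. These groups overlapped, and the log2 fold change was 0.03 ± 0.28 (SE, edgeR adjusted p of 0.929), with a sign that changed with the scaling.

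The 3p strand held most of the miR-322 counts: 67.7%, 58.2% and 62.8% in control and 63.0%, 80.0% and 75.6% in irradiated replicates 1, 2 and 3. Irradiated replicates 2 and 3 were above every control and replicate 1 was not. The change of the log2 5p to 3p ratio was −0.70 (95% interval −1.55 to 0.15, limma adjusted p of 0.259). Single libraries decided this value. Without irradiated replicate 1 it was −1.05 and passed (limma adjusted p of 0.0181), and without irradiated replicate 2 it was −0.43 (0.54). With irradiated replicate 1 as the only irradiated library it was −0.0039.

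MiR-351-5p, which has the miR-125 seed, was among the rarer strands. It was at 6.85, 5.47 and 7.97 CPM in the controls against 3.00, 9.91 and 8.17 CPM after irradiation. Irradiated replicate 1 was below all controls and the other two were above them. The log2 fold change of 0.06 ± 0.44 (SE) did not pass (edgeR adjusted p of 0.917), and its sign changed with the scaling. The other arm, miR-351-3p, had 1 count in control replicate 1 and none in the remaining libraries.

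**Figure D3:**
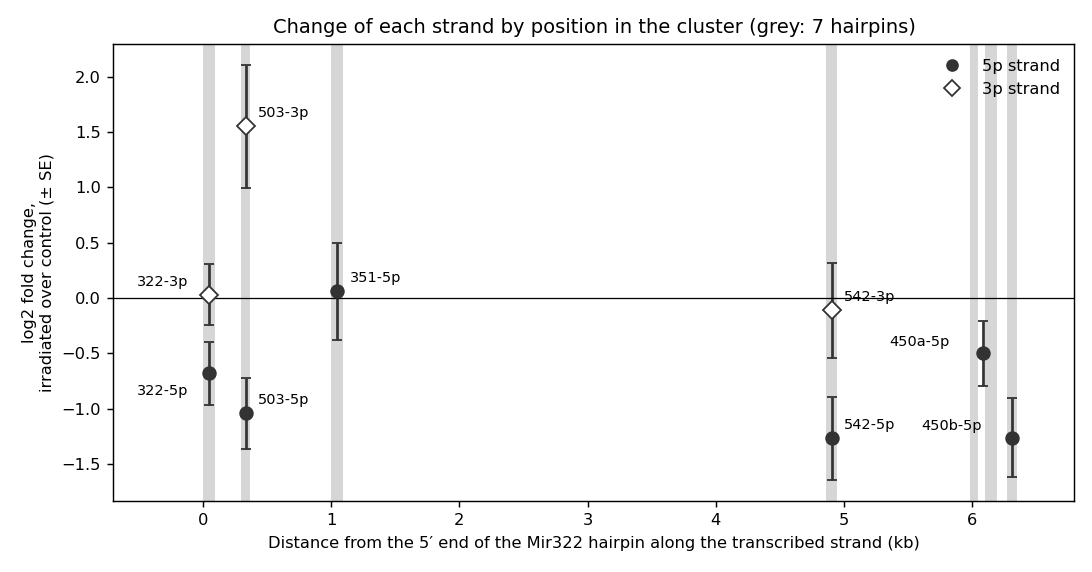
Log2 fold change of irradiated over control (y axis, ± SE) for each cluster strand at the place of its hairpin, given as the distance in kb from the 5′ end of Mir322 along the transcribed strand; filled circles are 5p strands, open diamonds are 3p strands and grey bars are hairpins, with miR-450a-5p drawn between its 2 hairpins. MiR-503-3p lies at 1.55 and miR-503-5p at −1.04 from the same hairpin, and no order along the cluster is visible.

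MiR-542 is the hairpin in which the 3p strand dominates. MiR-542-3p was at 53.2, 98.2 and 120.2 CPM in the controls against 71.0, 46.3 and 134 CPM after irradiation, so that the groups overlapped widely. Its log2 fold change of −0.11 ± 0.43 (SE) did not pass (edgeR adjusted p of 0.837) and changed sign with the scaling. MiR-542-5p was rare and steady within groups, at 2.85, 2.88 and 2.58 CPM in the controls against 1.04, 1.43 and 0.955 CPM after irradiation. Every irradiated library was below every control library. The log2 change of miR-542-5p was −1.27 with a standard error of 0.38 (edgeR adjusted p of 0.0147), from 20, 31 and 21 counts against 8, 12 and 9. This call was lost with DESeq2 (adjusted p of 0.0707), with upper-quartile factors (edgeR adjusted p of 0.0698), without any 1 of the control replicates (0.0575 to 0.0761) and without irradiated replicate 3 (0.0539).

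The share of the 3p strand of miR-542 was 94.9% to 97.9% in control and 97.0% to 99.3% in irradiated libraries. The ratio change of this hairpin was −1.08 toward the 3p strand (95% interval −2.38 to 0.22, limma adjusted p of 0.259). The 3 hairpins with both strands tested all had a negative change, of which 1 passed, and 50.7% of the 146 hairpins had a negative change. The 146 were not all independent of each other. For example, miR-126a-5p and miR-126b-3p had near-equal control means (725.5 and 725.4 CPM). The ratios of miR-126a and miR-126b changed in opposite directions, by −1.92 and 1.61.

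At the far end of the cluster, the near-relatives miR-450a-5p and miR-450b-5p were both lower in mean. MiR-450a-5p, one of the 3 more abundant strands of the cluster with miR-322-3p and miR-542-3p, was at 109, 155 and 93.7 CPM in the controls against 78.0, 105 and 70.5 CPM after irradiation. Its groups overlapped and the log2 fold change of −0.50 ± 0.30 (SE) did not pass (edgeR adjusted p of 0.161). MiR-450b-5p was at 22.2, 36.9 and 27.5 CPM in the controls against 7.17, 14.2 and 14.8 CPM after irradiation. All irradiated libraries were below all controls. MiR-450b-5p went from 28.9 ± 7.44 to 12.0 ± 4.23 CPM (SD, n = 3 each), −1.26 ± 0.36 on the log2 scale (SE), with an edgeR adjusted p of 0.0117, the smallest of the 9. The call was lost without control replicate 2 (edgeR adjusted p of 0.064). With irradiated replicate 1 as the only irradiated library the log2 fold change was −1.81.

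The balance between these 2 strands changed by 0.81 toward miR-450a-5p on the log2 scale, with groups that overlapped. The log2 ratio of miR-450a-5p to miR-450b-5p was 2.29, 2.07 and 1.77 in control and 3.43, 2.88 and 2.25 in irradiated replicates 1, 2 and 3. Irradiated replicate 3 lay within the control range, and the exact two-sided permutation p was 0.2. As 0.1 is the smallest p that 3 against 3 libraries allow, this test cannot decide whether the balance differed.

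MiR-450b also gave reads from its second arm, almost only after irradiation. This arm, miR-450b-3p, is not among the 9 strands and was too low for the filter, and it is described after its values were seen. It is shown with the seed in capitals beside the same arm of Mir450-1, with which it shares the first 18 of 22 bases and the seed.
miR-450b-3p: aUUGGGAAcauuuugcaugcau
miR-450a-1-3p: aUUGGGAAcauuuugcauaaau

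MiR-450b-3p had 0, 1 and 0 counts in control and 4, 9 and 20 counts in irradiated replicates 1, 2 and 3. All irradiated libraries were above all controls. In sum this was 1 against 33 counts, a ratio of 33.6 after scaling, with an exact 95% counting interval of 5.63 to 1368. That interval pools reads and does not cover the spread between mice. The size of this ratio rested on the single read of control replicate 2 and on the 20 counts of irradiated replicate 3. Without irradiated replicate 3 the ratio was 21.02 (3.16 to 893), and without control replicate 2 no control count was left, so that miR-450b-3p was at least 6.55-fold higher when 3 counts over the group are taken as the floor. As a share of both arms it was 0%, 0.251% and 0% in control and 6.78%, 7.03% and 12.6% in irradiated replicates 1, 2 and 3. A count of 0 allows a share of up to 1.92% in control replicate 1 and 1.34% in control replicate 3, taking 3 counts as the limit, and the 95% Wilson intervals of the same shares reach 2.40% and 1.69%. With no low-count filter the edgeR adjusted p of miR-450b-3p was 0.000174, and the authors' deposited table gives an adjusted p of 0.00475 for it. Both come from the counts for which this strand was picked, so neither is independent support. MiR-450a-1-3p had 0, 1 and 0 counts in control and 2, 2 and 5 in irradiated replicates 1, 2 and 3, a ratio of 9.17 in sum (1.27 to 402) that also rested on 1 control read, and did not pass without the filter (edgeR adjusted p of 0.158). Reads cut short at the 3′ end could not be assigned between these 2 arms. MiR-450a-2-3p had 1 count in each of irradiated replicates 1 and 2 and none elsewhere.

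**Figure D4:**
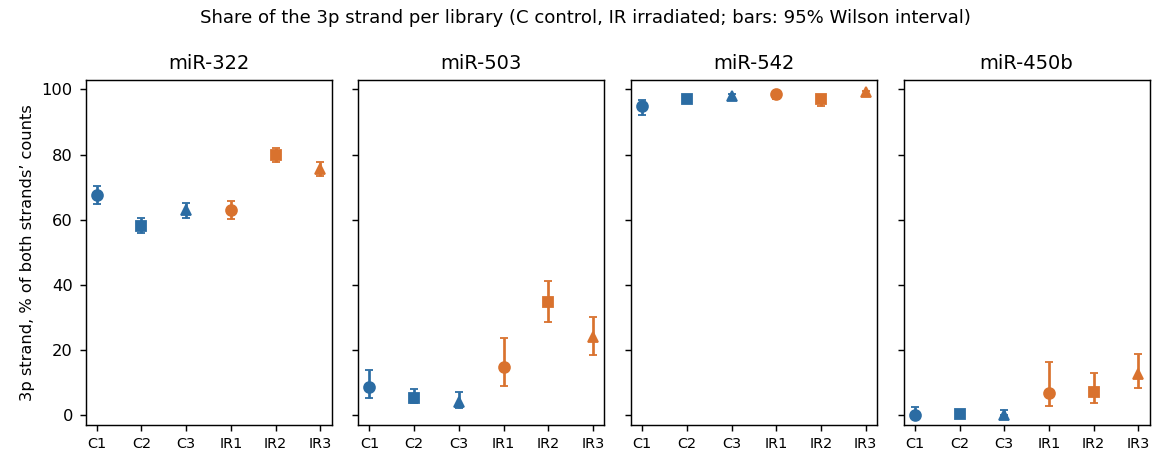
Share of the 3p strand in the counts of both strands (y axis, %) for miR-322, miR-503, miR-542 and miR-450b in control (C1 to C3) and irradiated (IR1 to IR3) libraries, with 95% Wilson intervals for counting error. The miR-503 share is 3.99% to 8.67% in control and 14.8% to 34.7% in irradiated libraries, and the miR-450b share is at most 0.251% and at least 6.78%.

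The authors' deposited table gave the same directions for the called strands, from the same libraries. It lists log2 fold changes of −0.9996 for miR-503-5p (adjusted p of 0.0163), 1.56 for miR-503-3p (0.0292) and −1.23 for miR-450b-5p (0.00499). For miR-542-5p the authors' deposited table lists −1.23 with an adjusted p of 0.105, which does not pass.

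MiRNAs with the seed of miR-322-5p elsewhere in the genome changed in both directions. Of the miR-15/16 seed family, miR-15b-5p fell by 3.63, miR-16-5p by 2.48 and miR-15a-5p by 2.24 on the log2 scale, while the rises were 1.95 for miR-497a-5p and 1.30 for miR-195a-5p (edgeR adjusted p of at most 0.00153 for each). Of 11 names on that list 6 were in the table. The sixth, miR-497b (−1.47, edgeR adjusted p of 0.0601), does not carry the seed. The log2 ratio of miR-322-5p to miR-15b-5p was −4.97, −4.93 and −5.05 in control and −2.04, −1.58 and −2.35 in irradiated replicates 1, 2 and 3. The ratio to miR-195a-5p moved the other way, from −0.14, 0.21 and 0.19 to −1.64, −2.13 and −1.93. Ratios to miR-16-5p (change of 1.82) and miR-497a-5p (−2.66) also did not overlap between groups. For each of these 4 the exact permutation p was 0.1, the lowest this design can give, and 0.178 after adjustment. Within the miR-15/16 seed group, miR-322-5p thus lay between members that rose and members that fell.

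The miR-125 strands with the seed of miR-351-5p were both higher after irradiation, miR-125a-5p by 1.49 and miR-125b-5p by 0.79 on the log2 scale (edgeR adjusted p of 0.000817 and 0.0176). The log2 ratio of miR-351-5p to miR-125a-5p was −4.38, −4.61 and −4.22 in control and −6.78, −5.56 and −5.58 in irradiated replicates 1, 2 and 3. That to miR-125b-5p changed by −0.90. Both had groups that did not overlap and an exact permutation p of 0.1 (0.178 adjusted).

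The second miRNA cluster of this part of the X chromosome, miR-106a-363, lies 305429 bp away at chrX:52741693-52742567. It is a paralogue of miR-17-92, which is known for promoting lymphocyte growth. Its 4 listed strands all fell, with log2 fold changes of −4.15 for miR-106a-5p, −4.86 for miR-20b-5p, −4.86 for miR-363-3p and −5.22 for miR-18b-5p. The log2 ratio of miR-322-5p to miR-20b-5p was −4.25, −3.69 and −3.85 in control and −0.03, 1.32 and 0.02 in irradiated replicates 1, 2 and 3. MiR-322-5p was therefore below miR-20b-5p in every control and near or above it in the irradiated libraries, with a change of 4.37 (exact permutation p of 0.1, 0.178 adjusted). The ratio to miR-106a-5p changed by 3.66, with the same p. The H19 miRNA miR-675, from another growth-related noncoding gene that is imprinted, had at most 2 counts in any library on its 3p strand and none on its 5p strand.

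**Figure D5:**
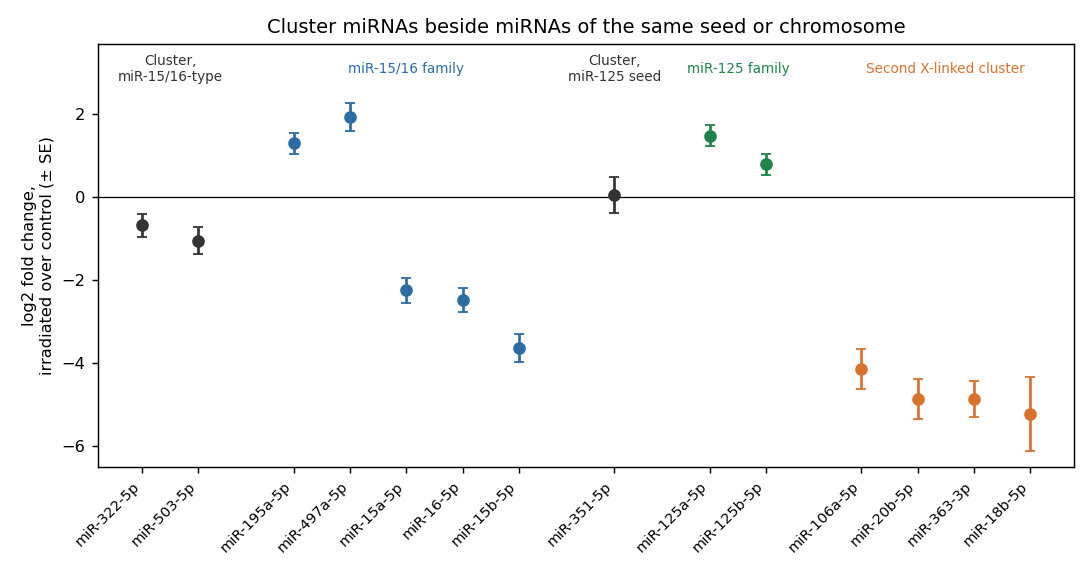
Log2 fold change of irradiated over control (y axis, ± SE) for the cluster strands miR-322-5p, miR-503-5p and miR-351-5p (black), the miR-15/16 family (blue), the miR-125 family (green) and the second X-linked cluster (orange). MiR-322-5p at −0.68 and miR-503-5p at −1.04 lie between miR-497a-5p at 1.95 and miR-15b-5p at −3.63.

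Within the cluster, the other ratios overlapped between groups, and a test whose smallest p is 0.1 cannot decide whether they differed. The ratio of miR-322-5p to miR-503-5p changed by 0.38 (exact permutation p of 0.9), to miR-351-5p by −0.59 (0.5), to miR-542-3p by −0.51 (0.6) and to miR-450a-5p by −0.20 (0.7). All 4 had overlapping groups. The ratio of miR-322-5p to miR-503-5p was 1.01 to 1.22 in control and 2.39, 1.00 and 1.20 in irradiated replicates 1, 2 and 3, so that irradiated replicate 1 alone stood apart.

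Averaged over the 9 strands, the log2 CPM was 4.41, 4.69 and 4.64 in control and 3.76, 4.42 and 4.33 in irradiated replicates 1, 2 and 3, lowest in irradiated replicate 1. Of the miRNAs outside the cluster, miR-30e-3p had the profile most like it over the 6 libraries (Pearson r of 0.99), followed by miR-674-3p (0.96), miR-497b (0.96), miR-340-3p (0.95) and miR-30f (0.94). MiR-30e-3p was at 451, 648 and 569 CPM in control and 168, 483 and 404 CPM in irradiated replicates 1, 2 and 3, with irradiated replicate 1 the lowest here too. With 6 libraries in 2 groups such values are a description of these libraries.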

How the data were processed

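Raw counts of reads per mature miRNA and library were deposited, per the file headers, together with the authors' log2 fold change and adjusted p-value of irradiated against control. The submitters' processing notes name DESeq2 1.10.1. Aligner, counter and build were not given in the sources used here. Molecules are labelled polyA RNA. Another 6 columns of counts match no label and were left out. Library totals were 7730641 to 9287017 counts, and 3 counts, the limit that a count of 0 allows, were 0.278 to 0.428 CPM.

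The quasi-likelihood test of edgeR 4.0.16 was run in R 4.3.3 on the counts (TMM factors, filterByExpr defaults, robust quasi-likelihood test, Benjamini-Hochberg adjustment over all tested miRNAs, threshold 0.05). Ratios of 2 miRNAs within a library (counts + 0.5) were compared by exact permutation over libraries. Strand ratios of all hairpins were fitted with limma 3.58.1 (trend, robust), a test added after seeing the data. Scripts were tested on simulated data. Alternatives were other scaling factors, filters and thresholds, DESeq2 1.42.0, limma-voom, the replicate block, and each library left out. Irradiated replicates 2 and 3 were also left out together, an alternative added after seeing the data, in which the lone irradiated library is assumed to vary like the controls. Its p-values would rest on the spread of the controls alone, so only effect sizes and a rank are given for it.

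The members, the lists and the rule for named miRNAs (the members, the other arms of their hairpins, the seed families, the neighbouring cluster, miR-675 and the 5 miRNAs with the most similar profile) were chosen with earlier results of these data known. Coordinates and sequences come from GENCODE M21 and RefSeq (GRCm38). The labels give 3 mice per group, so p-values measure the spread between these mice and libraries. No replicate pair was a copy. Ligation and amplification differ between sequences, so CPM of different miRNAs are compared only loosely.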

Additional observations from a re-analysis of the deposited data

How the results depend on the processing

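Over all miRNAs the count of calls was 318 (144 higher, 174 lower), 210 (87 higher) with a minimum of 10 CPM, where only 313 were tested, 87 higher at an adjusted p of 0.01, and 266 to 374 with any 1 library left out (110 to 183 higher and 140 to 191 lower). Of the called miRNAs alone, 45.3% were higher. This share was 38.4% with library totals, 59.7% with upper-quartile factors and 53.4% without the most abundant miRNA. The median log2 change of all miRNAs was 0.44 with upper-quartile factors, 0.12 with median-of-ratios factors and −0.13 with library totals, and the changes of the cluster strands shift by about as much.

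Of the 9 cluster strands, 4 were called (1 higher, 3 lower). This became 2 (1 lower) with upper-quartile factors and 0 (0 higher, 0 lower) at an adjusted p of 0.01. It was 0 to 5 with 1 library left out (0 to 1 higher, 0 to 4 lower). The higher call was 0 with limma-voom, with a minimum of 10 CPM, which miR-503-3p did not reach, and with the replicate block. MiR-450a-5p passed with the minimum of 10 CPM (−0.77, edgeR adjusted p of 0.0483), as did miR-322-5p (−0.93, 0.0142).

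Of the 5 strands that were not called, miR-322-3p, miR-351-5p and miR-542-3p changed sign, while miR-322-5p and miR-450a-5p stayed negative in every alternative. MiR-322-3p was −0.0872 with library totals, −0.0315 with no filter, −0.22 with a minimum of 10 CPM, −0.14 with irradiated replicate 1 alone and −0.0749 to 0.2358 with 1 library left out (lowest without control replicate 2). MiR-351-5p was −0.0322 with library totals, −0.0086 with no filter, −0.0764 with limma-voom, −0.0522 with the replicate block, −0.96 with irradiated replicate 1 alone and −0.0865 to 0.40 with 1 library left out (negative without control replicate 2, irradiated replicate 2 or irradiated replicate 3). MiR-542-3p was 0.0121 with median-of-ratios factors and with DESeq2, 0.35 with upper-quartile factors, 0.0968 without the most abundant miRNA, and −0.5179 to 0.40 with 1 library left out (positive without control replicate 3, irradiated replicate 1 or irradiated replicate 2).

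The summed level was 421 CPM in irradiated libraries with upper-quartile factors, 343.9 to 389.6 CPM without any 1 of them, and 435.9 to 494.9 CPM in control libraries without any 1. The ratio of miR-322-5p to miR-503-5p changed by −0.0542 (without irradiated replicate 1) to 0.6416, and that to miR-450a-5p by −0.4166 to 0.0845, above 0 without control replicate 3 or irradiated replicate 2. With 1 library left out the strand ratio of miR-503 changed by −2.71 to −1.92, of miR-322 by −1.05 to −0.43 and of miR-542 by −1.61 to −0.56. With irradiated replicate 1 alone that of miR-503 was −1.51. The ratio of summed counts was 21.02 to 42.3 for miR-450b-3p and 6.29 to 10.6 for miR-450a-1-3p with 1 library left out other than control replicate 2, an alternative chosen after seeing the data. Without control replicate 1, control replicate 3 or irradiated replicate 3 the counting interval of miR-450a-1-3p included 1. Hairpins with a changed ratio numbered 20, 3 (without control replicate 2) to 46 (without irradiated replicate 1) with 1 library left out, and 34 with the replicate block.

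The labels do not say that replicate numbers pair the mice. Correlations of same-numbered deviations were 0.10, −0.02 and 0.23, and not every library correlated best with its own number. A pairing by replicate number cannot be decided from these values. With the replicate block 3 of the 9 strands were called, all lower, miR-503-3p had an edgeR adjusted p of 0.0829, and the miR-503 strand ratio a limma adjusted p of 8.02e-06. Depth limits miR-503-3p, miR-542-5p, miR-351-5p and miR-450b-3p, which had under 100 counts in most libraries. For results whose change is not tied above to fewer libraries or miRNAs tested, the cause was not tested.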
